A study of Trametes cinnabarina with 17 samples.

Results

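The genes described here are a pair of laccases of the white-rot fungus *Pycnoporus cinnabarinus*, which the study assigned to the CAZy subfamily AA1_1. The gene model with the protein ID '8672' is called laccase A and the one with the protein ID '3446' laccase B. They were taken by these IDs, and both were found among the 10442 gene models of the count table and among the 9162 that were tested. Transcripts were measured by RNA-seq in mycelium of strain CIRM-BRFM 137 after 3 days in shaken liquid culture, in 17 libraries on 6 carbon sources. There were 3 libraries for each of aspen wood, wheat straw, pine wood, xylan-galactomannan (xylans mixed with galactomannans) and maltose. Crystalline cellulose (Avicel) had 2, which carry the numbers 1 and 3. By the labels, maltose cultures received 20 g/l maltose, whereas 15 g/l of the substrate with 2.5 g/l maltose was given in the other 5 media, so the substrate and the maltose concentration cannot be told apart in any comparison with maltose. In the study's methods each substrate is named as the sole source of carbon, which differs from the labels. All media held 0.007 g/l copper sulfate according to the labels, and time and strain were the same throughout. The study describes its cultures as independent, a description that does not cover xylan-galactomannan, so p-values measure the spread between libraries there.

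Laccases are secreted multicopper oxidases that take electrons from phenolic compounds and pass them to oxygen, which is reduced to water. In white-rot fungi they are counted among the enzymes that act on lignin and on the phenolics released from it, either directly or through small mediator molecules. *P. cinnabarinus* is known as a producer of laccase. The annotation of the study gives both genes the EC class of laccases and a predicted signal peptide, which marks a protein for secretion. For laccase B the study also lists the protein as detected in the culture medium on aspen, pine, wheat straw, Avicel and maltose. The study chose both from gene clusters highly transcribed on aspen, wheat straw and pine but not on maltose or Avicel, using the libraries analysed here. The cut was set on the mean of a cluster, so a single gene could lie below it. From these clusters it kept genes up-regulated in comparison to maltose, and its methods name Avicel as well. The comparisons of these 3 plant substrates with maltose and Avicel are therefore given as a description, without p-values. The xylan-galactomannan libraries did not enter that choice, but every carbon source with which they are compared did. Avicel and maltose entered it together, as carbon sources on which the clusters were not high. The plant substrates, which are also compared with each other, entered it as those with high levels. The p-values given below are therefore not fully independent of the selection.

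Total counts per library ranged from 10668073 to 16176027. Levels are given as normalized counts, that is, read counts that the authors divided by 1 size factor per library, on a linear scale. These values are not corrected for gene length, so the level of one laccase is not compared with that of the other, only the change of their ratio between carbon sources. The lowest raw count of laccase A in any library was 494 and that of laccase B was 967, for which counting error alone gives a coefficient of variation of 4.50% and 3.22%. The libraries are from whole mycelium, so more hyphae that transcribe a gene and more transcript per hypha cannot be told apart. Reads that map to near-identical copies may have been shared with other laccase genes, because the counting of such reads is not given in the sources used here.

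Laccase A was transcribed at its highest level on aspen. It had 70644, 68051 and 76382 normalized counts in aspen libraries 1 to 3. On wheat straw it had 11444, 12471 and 9039 normalized counts, and on pine 4895, 7765 and 7614. All aspen libraries were far above every other library, and the lowest wheat straw library was above the highest pine library. On xylan-galactomannan the gene had 4932, 2772 and 4660 normalized counts, and on Avicel 1427 and 2732. Maltose gave the lowest level, with 395, 595 and 447 normalized counts. The xylan-galactomannan libraries overlapped with pine, and Avicel library 3 reached almost the level of the lowest xylan-galactomannan library. In terms of library content, this single gene took 0.495 ± 0.0430% of all counts on aspen and 0.00411 ± 0.00103% on maltose (SD, n = 3 each).

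Laccase B followed another order, with wheat straw at the top. It had 5301, 4885 and 4758 normalized counts in the aspen libraries. On wheat straw it had 20053, 16955 and 16144 normalized counts, and on pine 2420, 2579 and 3027. The 3 plant substrates did not overlap with each other, and all of them were above every other library. On xylan-galactomannan it had 1746, 1155 and 1338 normalized counts, and on Avicel 1425 and 1419. On maltose it had 1030, 1053 and 839 normalized counts. Both Avicel libraries lay within the range of the xylan-galactomannan libraries, and the highest maltose library was below every library of the other carbon sources. The means spanned 18.2-fold from the highest to the lowest carbon source for this gene and 150-fold for laccase A.

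**Figure D1:**
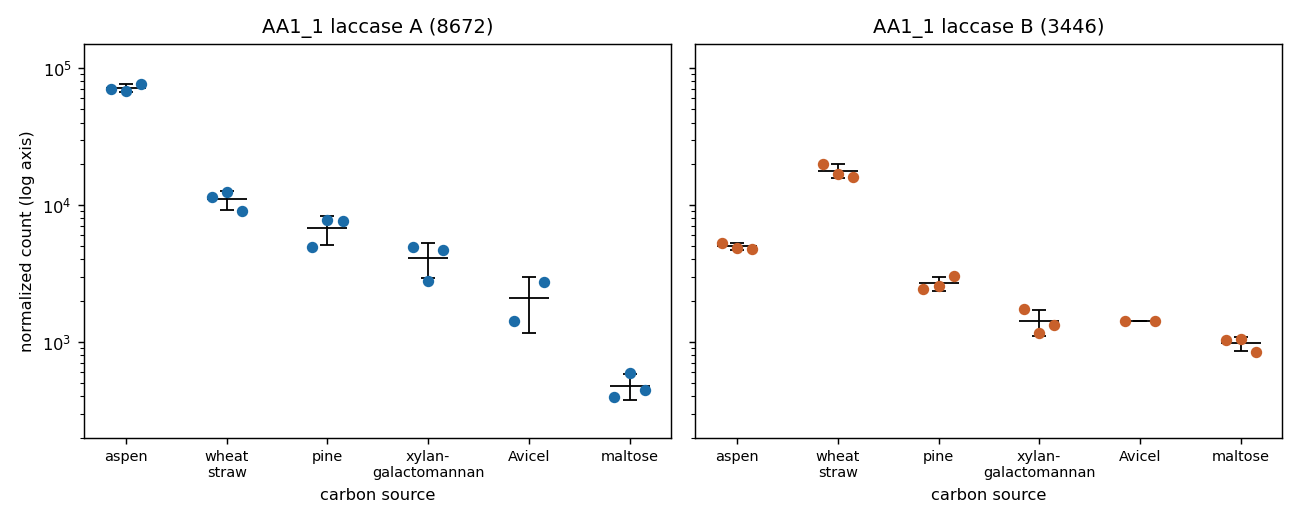
Normalized counts (log axis) of the 2 laccases in each of the 17 libraries, by carbon source. Points are libraries, the long bar is the mean and the whiskers are the SD (n = 3, Avicel n = 2). Laccase A lies between 68051 and 76382 on aspen and at most 12471 elsewhere, whereas laccase B is highest on wheat straw, between 16144 and 20053.

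The spread between replicates differed between the genes and carbon sources. For laccase A the coefficient of variation was 5.95% on aspen and 44.4% on Avicel, where the 2 libraries were 1.91-fold apart. For laccase B the same 2 Avicel libraries differed by 1.00-fold (coefficient of variation 0.312%), and its largest value was 21.4% on xylan-galactomannan. The biological coefficient of variation estimated by edgeR over all groups was 0.220 for laccase A and 0.139 for laccase B, beside a median of 0.129 over all genes tested. The 2 laccases deviated from their carbon-source means in the same direction in 9 of 17 libraries.

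Differences were tested in 1 model over all 17 libraries with the quasi-likelihood test of edgeR. The thresholds for a call were an adjusted p under 0.05 (Benjamini-Hochberg, over all 9162 genes tested) together with a change of more than 1 on the log2 scale in either direction. Fold changes are given as the first carbon source named over the second.

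In comparison to maltose, both laccases were past these thresholds on all 3 plant substrates, the difference for which the study chose them. Among all genes tested, 13.1% were called higher on aspen, 9.53% on wheat straw and 13.7% on pine. Laccase A had a log2 fold change of 7.20 ± 0.34 on aspen (SE), 4.49 ± 0.30 on wheat straw and 3.78 ± 0.29 on pine. Its value on aspen, a 147-fold higher level, ranked 6 of 9162 genes from the highest. For laccase B the values were 2.33 ± 0.16 on aspen, 4.16 ± 0.17 on wheat straw and 1.42 ± 0.16 on pine. On wheat straw the 2 genes thus had similar ranks (67 for laccase A and 82 for laccase B), while on aspen laccase B ranked 300.

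Avicel served as pure cellulose, and by the labels its medium and the plant substrate media did not differ in maltose. Relative to Avicel, laccase A had a log2 fold change of 5.12 ± 0.37 on aspen (SE), 2.40 ± 0.32 on wheat straw and 1.69 ± 0.31 on pine, all past the thresholds. The share of all genes called higher was 10.2% on aspen, 8.18% on wheat straw and 11.9% on pine. Laccase B was past the thresholds on aspen (1.82 ± 0.18) and wheat straw (3.64 ± 0.20), whereas its log2 fold change on pine was 0.90 ± 0.18, under the threshold on fold change. All of these values rest on the 2 Avicel libraries, which lay apart for laccase A: with each library left out in turn the value of laccase A on pine ranged between 1.29 and 2.23. The call of laccase A on pine was lost with Bonferroni adjustment.

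On xylan-galactomannan, the hemicellulose mixture, laccase A was called and laccase B was not, and the ratio described further on compares the 2 genes directly. Laccase A rose on it in comparison to maltose, with 3.08 ± 0.28 on the log2 scale (SE, edgeR adjusted p = 2.3e-07), an 8.45-fold higher level, and all 3 libraries were above all maltose libraries. This comparison called 6.97% of all genes higher, and laccase A ranked 47 of 9162. Laccase B was not called, at 0.51 ± 0.15 log2 units (SE, edgeR adjusted p = 0.013) and a 95% interval of 0.19 to 0.84, so a doubling lies outside its interval. Avicel in comparison to maltose gave the same calls. Laccase A rose by 2.09 ± 0.29 log2 units (SE, edgeR adjusted p = 2e-05), where 6.01% of all genes were called higher. Laccase B had 0.51 ± 0.17 (SE, edgeR adjusted p = 0.027; 95% interval 0.15 to 0.88) and was not called.

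Between xylan-galactomannan and Avicel neither laccase was called, where 6.93% of all genes were called higher. The difference of laccase A was 0.99 ± 0.30 log2 units (SE, edgeR adjusted p = 0.014), directly at the threshold of 1. It was called without xylan-galactomannan replicate 2 (1.20) and without Avicel replicate 3 (1.53), and with upper-quartile scaling or the replicate number as a block (1.02 each). That of laccase B was -0.0015 ± 0.17 log2 units (SE, edgeR adjusted p = 0.99), with a 95% interval of -0.36 to 0.36, which corresponds to levels between 0.777 and 1.29 times those on Avicel.

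The plant substrates were compared with xylan-galactomannan next. On aspen laccase A was higher by 4.12 ± 0.29 log2 units (SE, edgeR adjusted p = 8.6e-09) and laccase B by 1.82 ± 0.16 (SE, edgeR adjusted p = 7.4e-08), where 8.1% of all genes were called higher. On wheat straw the order of the genes was turned, with 1.41 ± 0.26 for laccase A (SE, edgeR adjusted p = 0.00027) and 3.64 ± 0.17 for laccase B (SE, edgeR adjusted p = 5e-11), where 7.76% were called higher. The call of laccase A on wheat straw was lost with Bonferroni adjustment (adjusted p = 0.40). Pine differed less, and neither gene was called there, beside 11.5% of all genes called higher. The log2 fold change of laccase A on pine was 0.70 ± 0.26 (SE, edgeR adjusted p = 0.027; 95% interval 0.15 to 1.24). For laccase B it was 0.90 ± 0.16 (SE, edgeR adjusted p = 8.1e-05), and without xylan-galactomannan replicate 1 it was 1.08 and called.

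Among the plant substrates, aspen and wheat straw moved the laccases in opposite directions. Laccase A was higher on aspen than on wheat straw by 2.71 ± 0.27 log2 units (SE, edgeR adjusted p = 8.5e-07), a 6.55-fold difference, and laccase B was lower on aspen, at -1.83 ± 0.16 log2 units (SE, edgeR adjusted p = 1.4e-07), a 3.54-fold lower level. For neither gene did the libraries overlap. In this comparison 4.31% of all genes were called higher on aspen and 3.42% lower.

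Laccase A was higher on aspen than on pine by 3.43 ± 0.28 log2 units (SE, edgeR adjusted p = 9.5e-08), or 10.7-fold, which ranked 16 of 9162 genes, where 4.33% were called higher. Laccase B was not called, at 0.91 ± 0.15 log2 units (SE, edgeR adjusted p = 0.00013; 95% interval 0.59 to 1.24). Without pine replicate 3 its value was 1.02 and it was called. Wheat straw against pine gave the reverse assignment, with 2.65% of all genes called higher. Laccase B was higher on wheat straw by 2.74 ± 0.16 log2 units (SE, edgeR adjusted p = 8.9e-09), which ranked 22 of 9162. Laccase A was not called, with 0.71 ± 0.26 (SE, edgeR adjusted p = 0.035; 95% interval 0.17 to 1.26), although its libraries did not overlap.

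**Figure D2:**
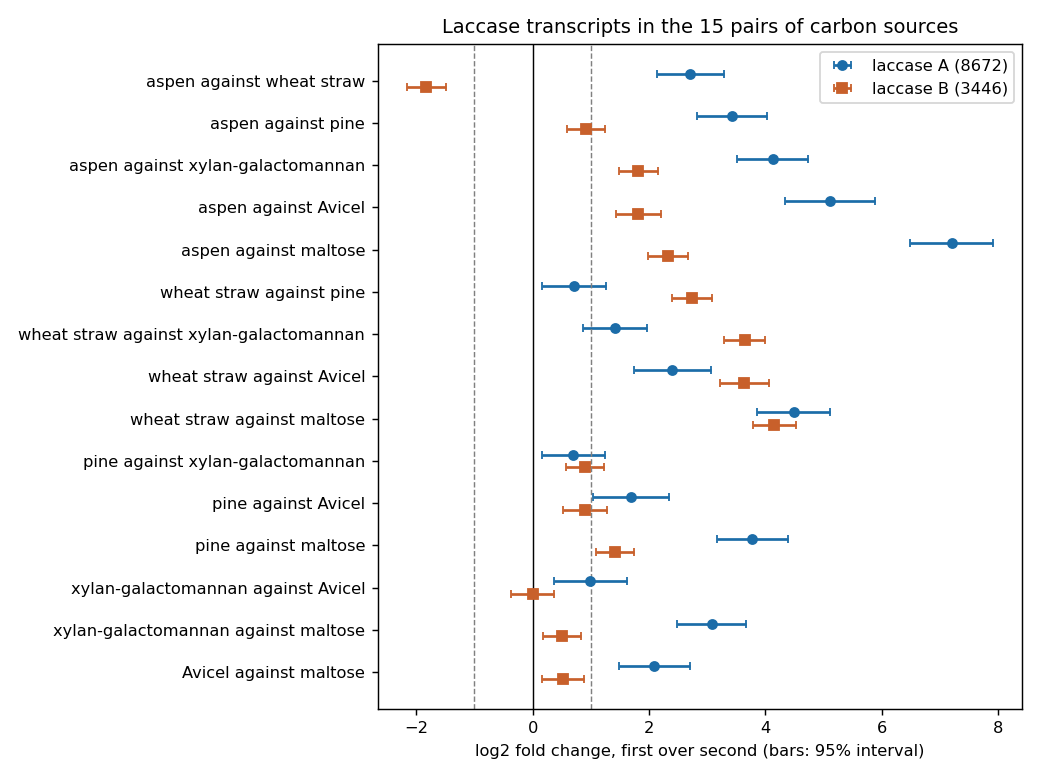
Log2 fold change of the 2 laccases in the 15 pairs of carbon sources, first over second, from the edgeR model over 17 libraries. Points are estimates, bars are 95% intervals, and dashed lines mark the threshold of 1 in each direction. Laccase A is at 2.71 and laccase B at -1.83 for aspen against wheat straw, a pair where they lie on opposite sides of 0.

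In the order of levels, the steps between neighbouring carbon sources thus did not all pass both thresholds. For laccase A the order was aspen, wheat straw, pine, xylan-galactomannan, Avicel and maltose. Only the first step (aspen to wheat straw) and the last (Avicel to maltose) passed both thresholds, and the steps between had an adjusted p under 0.05 with a log2 fold change under 1. For laccase B the order was wheat straw, aspen and pine, then Avicel and xylan-galactomannan with means of 1422 and 1413, then maltose. Here only the step between wheat straw and aspen passed both thresholds. Between aspen and pine, pine and xylan-galactomannan, and xylan-galactomannan and maltose, the edgeR adjusted p was under 0.05 with a log2 fold change under 1. The same held for Avicel against maltose. Pine against Avicel stood at 0.90, also under the threshold on fold change. Avicel and xylan-galactomannan did not differ beyond their spread.

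The ratio of the counts of the 2 laccases within a library does not depend on how libraries are scaled. The ratio of laccase A to laccase B was 13.3, 13.9 and 16.1 in the aspen libraries. On wheat straw it was 0.571, 0.736 and 0.560, and on pine 2.02, 3.01 and 2.51. Aspen had the highest ratios of all libraries, and wheat straw overlapped with maltose. On xylan-galactomannan the ratio was 2.82, 2.40 and 3.48, on Avicel 1.00 and 1.93, and on maltose 0.383, 0.566 and 0.533. Xylan-galactomannan and pine overlapped in this measure.

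On the log2 scale the mean ratio stood at 3.85 ± 0.14 in aspen libraries and at -0.70 ± 0.22 in wheat straw libraries (SD over 3 libraries), a difference of 4.54. It was 1.52 ± 0.27 on xylan-galactomannan and -1.04 ± 0.30 on maltose (SD, n = 3 each), a difference of 2.56. Wheat straw and maltose differed by 0.34, and pine and xylan-galactomannan by -0.21. The exact two-sided permutation test gave p = 0.10 for aspen against wheat straw and for xylan-galactomannan against maltose, the smallest p that 3 against 3 libraries allow, and 0.115 after Benjamini-Hochberg adjustment over 15 pairs. The same exact test gave p = 0.20 for wheat straw against maltose and p = 0.50 for pine against xylan-galactomannan. This exact test of 1 pair of carbon sources can therefore not pass a threshold of 0.05.

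**Figure D3:**
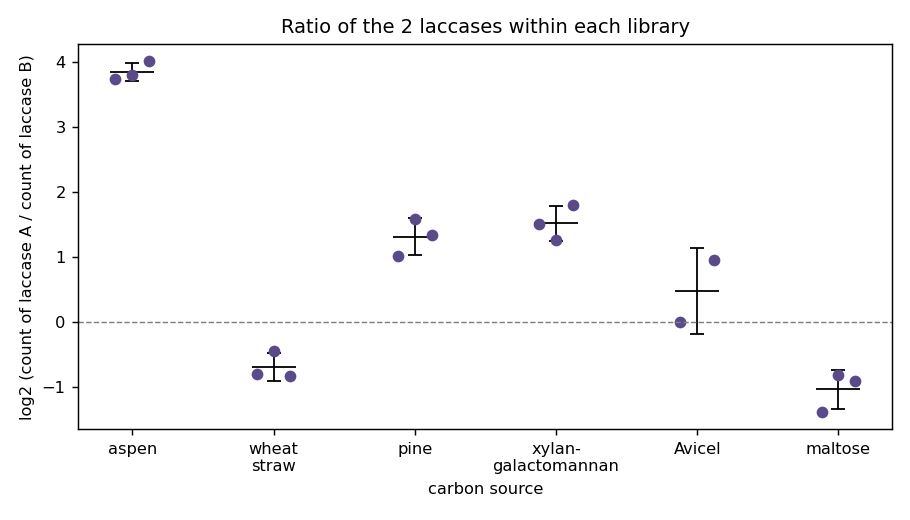
Log2 ratio of the counts of laccase A to those of laccase B in each library, by carbon source. Points are libraries, the long bar is the mean and the whiskers are the SD (n = 3, Avicel n = 2), and the dashed line marks equal counts, which are not corrected for gene length. The mean is 3.85 on aspen, -0.70 on wheat straw and -1.04 on maltose.

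Together the 2 laccases took 0.529 ± 0.0426% of all counts on aspen, 0.216 ± 0.0237% on wheat straw and 0.0612 ± 0.0127% on pine (SD, n = 3 each). The share was 0.0418 ± 0.0109% on xylan-galactomannan and 0.0125 ± 0.00199% on maltose (SD, n = 3 each), with Avicel between them at 0.0225 ± 0.00687% (SD, n = 2). Laccase B alone took 0.133 ± 0.0147% of all counts on wheat straw and 0.00834 ± 0.00121% on maltose (SD, n = 3 each).

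Genes with the most similar pattern were sought by Pearson's r of log2(normalized count + 1) over the 17 libraries, among 9166 other genes. These values are descriptions, since libraries of a carbon source share their culture condition. Laccase A was most like protein IDs 3862 (r = 0.98), 7466 (0.97) and 5371 (0.97), which have no annotation in the sources used here. Protein ID 3862 had 3525 ± 530.1 normalized counts on aspen, 1142 ± 136 on wheat straw and 358 ± 28.2 on maltose (SD, n = 3 each). Its order over the 6 carbon sources was that of laccase A, but its range was narrower. With r of at least 0.9 there were 85 genes for laccase A and 18 for laccase B.

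Annotation was taken for 118 genes from the study's lists of genes selected on the plant substrates. The laccases were selected in the same way from these libraries, so part of any likeness to these genes follows from the selection. Of the 118, the most similar to laccase A were a cytochrome P450 (r = 0.93) and a GH92 family enzyme (6860, r = 0.89). Cytochromes P450 are monooxygenases of intracellular metabolism, and GH92 is a family of alpha-mannosidases. The level of the P450 gene was 13875 ± 1423 normalized counts on aspen against 4206 ± 240 on pine (SD, n = 3 each). Its level on Avicel, 988 ± 279 (SD, n = 2), was near the 1006 ± 41.2 of maltose (SD, n = 3), whereas laccase A was 4.25-fold higher on Avicel than on maltose.

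Laccase B was most like protein IDs 5291, 6759 and 4818 (r = 0.95 each). These are also not among the 118 genes with an annotation here, so nothing is said of their function. Protein ID 4818 had 202 ± 59.8 normalized counts on aspen, 2805 ± 431 on wheat straw, 292 ± 37.1 on pine and 39.0 ± 3.21 on maltose (SD, n = 3 each). Among annotated genes the most similar were 9738 (r = 0.88), a GH31 enzyme annotated as an alpha-glucosidase, and 9620 (r = 0.86). The latter carries the EC code of glucoamylases beside the code KOG4701 and has no CAZy family. Alpha-glucosidases and glucoamylases release glucose from starch-like glucans, but for 9620 the class rests on the EC code alone. The mean of both genes on pine was above that on aspen, unlike laccase B. By Pearson's r the other laccase was not among the nearest genes, at an r of 0.68 beside a median of -0.03 over all genes for either laccase. Laccase B ranked 1117 of 9166 in likeness to laccase A, and laccase A ranked 638 of 9166 in likeness to laccase B. Spearman's rho between the laccases was 0.89, above the rho of the P450 gene with laccase A (0.88). It was also above those of 5291 (0.87), 4818 (0.88), 9738 (0.82) and 9620 (0.81) with laccase B. With laccase A, 3862 (0.96), 7466 (0.98), 5371 (0.93) and 6860 (0.96) had a higher rho, as had 6759 (0.94) with laccase B. The order of likeness thus depended on the measure.

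**Figure D4:**
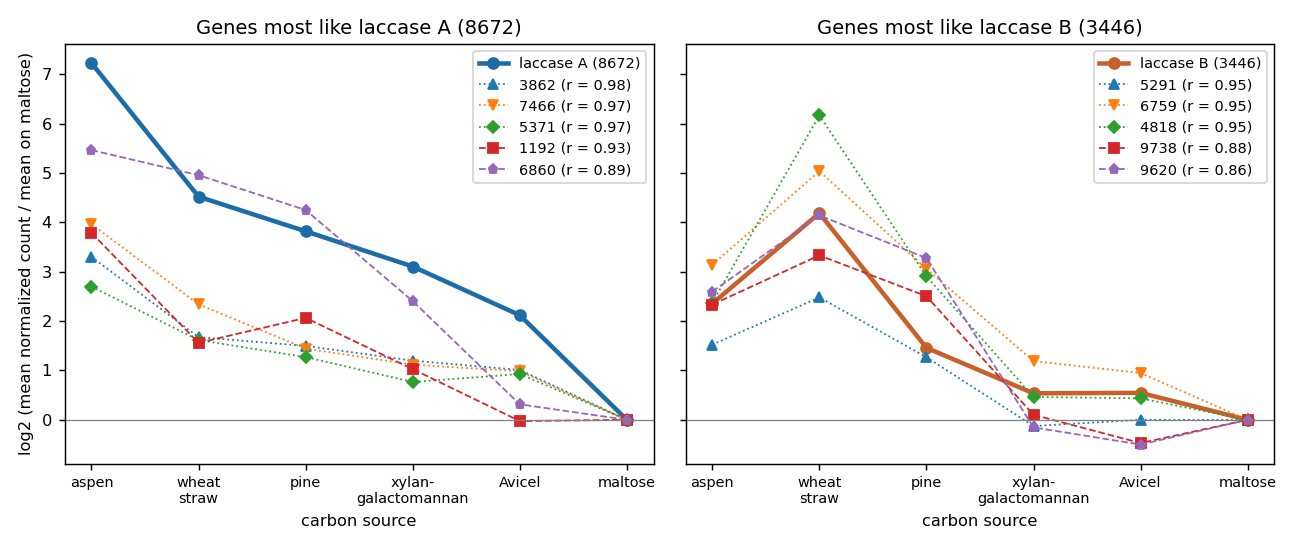
Mean normalized count on each carbon source over the mean on maltose (log2) for each laccase, for the 3 genes most like it (dotted) and for the 2 most like it among genes annotated by the study (dashed), with Pearson's r over 17 libraries. Lines only join the means of a gene. Laccase A peaks on aspen and laccase B on wheat straw, as do the 3 genes nearest to each.

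Laccases work beside other oxidative enzymes, and 14 further genes that the study's tables annotate as oxidoreductases were examined. All 14 were tested. Apart from the AA9-CBM1 gene, which its tables list in a gene cluster with many secreted proteins, the study selected them for their levels on the plant substrates in these libraries, without xylan-galactomannan. Counts on the plant substrates against maltose and Avicel are therefore not independent evidence. The maltose libraries, with which xylan-galactomannan and Avicel are compared here, entered that selection as well. In comparison to maltose, 13 were called higher on aspen (13.1% of all genes), 13 on wheat straw (9.53%) and 11 on pine (13.7%), with medians of 2.44, 1.70 and 2.22 log2 and medians over all genes between -0.05 and -0.02. On xylan-galactomannan 6 of 14 were called higher and 0 lower (6.97% and 3.2% of all genes), with a median of 0.92 and -0.00 over all genes. On Avicel 3 were called higher and 1 lower (6.01% and 5.83% of all genes), with a median of 0.19 and -0.01 over all genes.

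Some genes of this list resembled one laccase on some carbon sources only. Those named here were singled out after their values were seen, so their p-values are descriptions and not independent evidence. The predicted homogentisate dioxygenase, an enzyme of aromatic ring cleavage, was higher on aspen than on wheat straw by 4.68 ± 0.20 (SE, edgeR adjusted p = 2.5e-11), a step in the direction of laccase A, but on xylan-galactomannan against maltose it had 0.49 and was not called. The AA9-CBM1 lytic polysaccharide monooxygenase, which cleaves cellulose oxidatively, was lower on aspen than on wheat straw, with -2.25 ± 0.19 (SE, edgeR adjusted p = 1.1e-07), a step in the direction of laccase B. On Avicel it was 7.65 ± 0.25 above maltose (SE, edgeR adjusted p = 1.1e-13), where laccase B had 0.51. The gene related to kynurenine 3-monooxygenases had log2 fold changes of 2.89 on aspen, 2.11 on wheat straw, 3.07 on pine and 1.41 on xylan-galactomannan against maltose, all called. Among the plant substrates its value was highest on pine, where each laccase had its lowest. Kynurenine 3-monooxygenases hydroxylate kynurenine in tryptophan breakdown. The annotation of this gene also covers related flavoprotein monooxygenases, so its substrate is not known from it. For aspen against wheat straw, 5 of the 14 were called higher and 1 lower (4.31% and 3.42% of all genes), with a median of 0.41 and 0.01 over all genes. For aspen against pine, 4 were called higher and 5 lower (4.33% and 7.8% of all genes), with a median of 0.15 and 0.05 over all genes. For wheat straw against pine, 1 was called higher and 1 lower (2.65% and 5.18% of all genes), with a median of -0.46 and 0.01 over all genes.

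**Figure D5:**
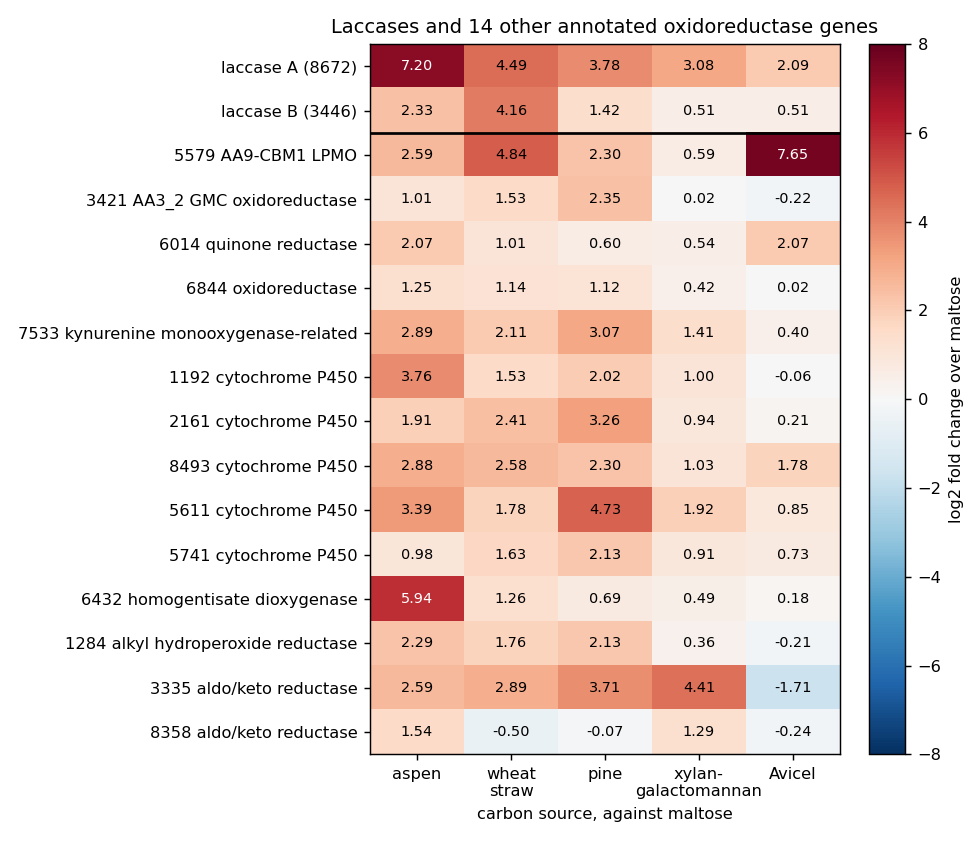
Log2 fold change over maltose on 5 carbon sources for the 2 laccases (above the line) and 14 other oxidoreductase genes, printed in each cell and coloured from blue (lower) to red (higher). Laccase A is highest on aspen (7.20) and laccase B on wheat straw (4.16), and the AA9-CBM1 gene is highest on Avicel (7.65).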

How the data were processed

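The data were read counts for 10442 gene models in 17 libraries. Laccase A is protein ID 8672 and laccase B is protein ID 3446. The authors made the deposited counts with TopHat2 and HTSeq from poly-A RNA-seq reads; the sources used here do not give tool versions for these, the strand setting or the handling of multi-mapping reads. The authors' other deposited table is a normalized signal: each library's counts over a constant, with a relative spread of at most 9.9e-15, for 9167 gene models that total 85 or more counts. Every column was matched to a library by name. Counts were tested with edgeR 4.0.16 in R 4.3.3 (filterByExpr, TMM, glmQLFit on all libraries, carbon source as the only term), and the script was tested on simulated data. SEs were derived from the F statistic. DESeq2 1.42.0, the package of the study, was an alternative; others changed normalization, filter, adjustment, threshold, libraries or the replicate block. No replicate pair agreed within sampling noise (chi-square over degrees of freedom at least 8.50). Besides the laccases, the text names the list of 14 oxidoreductases and, for each laccase, the 3 genes with the highest r and the 2 highest among annotated genes. Of that list the text describes protein IDs 6432 (homogentisate dioxygenase), 5579 (AA9-CBM1), 7533 (related to kynurenine 3-monooxygenases) and 1192 (the cytochrome P450 most like laccase A), which were singled out after their values were seen. Ratios had 0.5 added to each count. Genes, lists and settings were chosen with earlier results of these data known. With 0 IDs found in the RefSeq table, no coordinates are given. Fold changes in the study's own tables were not used.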

Additional observations from a re-analysis of the deposited data

How the results depend on the processing

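The 30 log2 fold changes (2 laccases in 15 pairs) were recomputed under 8 alternatives and with each of 17 libraries left out, and in 730 of 750 cases neither the sign nor the call changed. With upper-quartile factors the values moved by up to 0.12, and laccase A on xylan-galactomannan against Avicel was called at 1.02, while laccase B turned to 0.0237 in that pair. Using RLE factors, no filter, DESeq2 or only the libraries of a pair shifted values by at most 0.04 and changed no call. With Bonferroni adjustment laccase A was not called on wheat straw against xylan-galactomannan (1.41) and on pine against Avicel (1.69). Without the threshold on fold change, laccase A was also called on wheat straw against pine (0.71), pine against xylan-galactomannan (0.70) and xylan-galactomannan against Avicel (0.99). Laccase B was then also called on aspen against pine (0.91), pine against xylan-galactomannan (0.90), pine against Avicel (0.90), xylan-galactomannan against maltose (0.51) and Avicel against maltose (0.51). The replicate block gave 1.02 and a call for laccase A and 0.0156 for laccase B on xylan-galactomannan against Avicel, and it changed no other call. Same-numbered libraries had deviations correlated above 0.1 in 12 of 40 pairs (range -0.23 to 0.23). All 3 pairs of aspen and xylan-galactomannan did so (0.149, 0.117 and 0.225), and there the block gave 4.11 for laccase A and 1.83 for laccase B, both still called. In every other comparison at least 1 pair did not, so the numbers were not taken to pair the cultures there, although 13 of 17 libraries had a higher mean r with their own number than with the others. With each library left out in turn, laccase A on xylan-galactomannan against Avicel ranged between 0.59 and 1.53 and laccase B between -0.18 and 0.12, laccase B on aspen against pine between 0.84 and 1.02, and on pine against xylan-galactomannan between 0.79 and 1.08. The cause of these changes was not tested, apart from the thresholds, which change calls by their construction. All 115 recomputed differences of the log2 ratio kept their sign. The genes most like a laccase depended on the measure: with Spearman's rho 1 of 3 was again among the 3 nearest to laccase A and 0 of 3 for laccase B, and without the xylan-galactomannan libraries 1 of 3 for laccase B.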
